A study of Mus musculus with 9 samples.

Results

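The well expressed long intergenic non-coding RNAs (lincRNAs) of mouse LLC1 cells are described here. They are the genes with the Ensembl biotype lincRNA that are listed in both deposited tables with a mean normalized count of at least 50 over the 6 libraries of each table. Gm26917 was left out because it collects ribosomal RNA reads. The rule kept 115 of the 725 lincRNAs and of the 19305 genes listed in either table, and 514 of the 630 lincRNAs listed in both tables fell under the threshold. The members were chosen by these mean levels, which are therefore given as a description and not tested. Just inside the threshold were 2900076A07Rik, with means of 50.2 in the table with Th9 and 56.3 in the table with Th17, and Cep83os, with 50.8 and 64.8 in the same tables. Just outside were 6430562O15Rik, with means of 49.8 and 53.3 in these tables, and Gm26538, with 51.2 and 49.2.

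LLC1 (Lewis lung carcinoma) is a mouse lung cancer cell line. The cells were cultured for 24 h in direct contact with Th9, Th17 or Th0 CD4+ T cells at 1 T cell per LLC1 cell, CD4+ cells were then removed by sorting, and total RNA was sequenced. Each of the 3 groups had 3 libraries. Th9 and Th17 cells are helper T cells polarised towards interleukin-9 or interleukin-17 production, and Th0 cells, the reference for both, are activated without such polarisation in usual practice. All 3 groups therefore carried T cells during culture, and LLC1 cells without T cells are not analysed here. One table held Th9 and Th0, the other Th17 and Th0, and the same 3 Th0 libraries stand in both, so the 2 comparisons are not independent of each other. Nothing in the labels ties the replicates to separate cultures, and p-values thus cover only the spread seen among these libraries, which may be technical.

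LincRNAs are transcribed and often spliced like messenger RNAs but carry no long open reading frame. Many stay in the nucleus, where Malat1 lies in nuclear speckles, Neat1 builds paraspeckles and Xist coats the inactive X chromosome. Others are the precursors of snoRNAs or microRNAs, or act on the gene next to them, as described for transcripts induced by p53 or by inflammatory signals.

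Values behave as read counts scaled by 1 factor per library and rounded, and are called normalized counts below. Their sums ran from 13135611 to 15923877 per library. Each fold change is the difference between group means of log2(value + 1), which understates the change of low genes, and a gene was called at a Benjamini-Hochberg adjusted p under 0.05 over all genes tested with limma-trend. Th0 replicate 1 stood apart: mt-Rnr1, mt-Rnr2 and Gm26917 together took 31.1% of its values, against 16.1% to 18.6% in Th9 libraries, 20.7% to 21.8% in Th17 libraries and 14.9% to 16.6% in the other Th0 libraries. It was also the highest of the 3 Th0 libraries for 79 of the 115 lincRNAs (68.7%) in the table with Th9, against 36.6% of all genes. The counts of called lincRNAs are therefore also given without it. Counts of groups that do not overlap and values on neighbouring genes are given only with it. Of 25 T cell markers, 19 of the 21 tested were called higher in Th9, with a summed level of 1885 to 2740 in Th9 libraries and 112 to 258 in Th0 libraries. Cd3e had 86, 61 and 54 normalized counts in Th9 and 5, 3 and 2 in Th0, and Trbc1 had 26, 18 and 9 in Th9 and 0 in each Th0 library. In Th17 none of the 5 tested markers was called by limma-trend and 1 had an unadjusted p under 0.05, the summed level was 83 to 104 in Th17 and 111 to 243 in Th0, and Cd3d, Cd3e and Trac were not listed. B cell markers summed to 36 to 38 in Th17 and 92 to 292 in Th0, with 1 of 3 called lower, and to 109 to 125 in Th9 and 89 to 284 in Th0, with none of 3 called. The part of RNA of these cells in the lincRNA values was not tested. The 6 epithelial and carcinoma markers summed to 3993 to 4709 in Th9 libraries and 4903 to 6971 in Th0 libraries, almost all of it Krt8 and Krt18, with 1 of 2 tested called lower, and 2 of 5 mesenchyme markers were called lower in Th9, while Cdh1, Epcam and Nkx2-1 were not listed in either table.

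Of the 115 lincRNAs, 114 were found in the GENCODE M21 annotation of the same genome build (GRCm38), of which 98 were still classed as lincRNA and 8 as antisense. Their summed exon length had a median of 3195 bases and ran from 404 to 20771, and 12 had a single exon block. No exon of another gene overlapped 69 of them, 41 overlapped an exon on the other strand and 4 an exon on the same strand. As the use of strand in counting is not stated, reads of overlapping genes cannot be told apart for these. A protein-coding gene contained or overlapped 48 of the lincRNAs, and 10 started within 2000 bases of a divergent protein-coding start.

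The promoters of 52 of the 115 lincRNAs were found in RefSeq (GRCm38.p6, 250 bases before to 50 after the annotated start). Those of 4 lincRNAs called in Th9 are shown as examples, 3 that rose and 1 that fell. They include every matched lincRNA called in Th9 that held the AP-1 letters, so they do not stand for the called promoters. Matches to the E-box (CACGTG) and to the AP-1 letters (TGANTCA, any base at N) are in capitals, both palindromic and so read on both strands at once. The AP-1 letters are looser than the AP-1 site itself, which has C or G at N. Mirt1 lies at chr19:53464747-53465046 on the minus strand, 3300005D01Rik at chr17:5798407-5798706 on the plus strand, Ptgs2os2 at chr1:150164899-150165198 on the minus strand and Gm16907 at chr13:63297098-63297397 on the minus strand.
Mirt1: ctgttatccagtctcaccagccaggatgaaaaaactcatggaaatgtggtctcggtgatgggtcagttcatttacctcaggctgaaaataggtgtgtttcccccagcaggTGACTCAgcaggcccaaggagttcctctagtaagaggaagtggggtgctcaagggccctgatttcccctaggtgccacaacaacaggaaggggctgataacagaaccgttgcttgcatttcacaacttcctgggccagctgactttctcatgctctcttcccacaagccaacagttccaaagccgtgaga
3300005D01Rik: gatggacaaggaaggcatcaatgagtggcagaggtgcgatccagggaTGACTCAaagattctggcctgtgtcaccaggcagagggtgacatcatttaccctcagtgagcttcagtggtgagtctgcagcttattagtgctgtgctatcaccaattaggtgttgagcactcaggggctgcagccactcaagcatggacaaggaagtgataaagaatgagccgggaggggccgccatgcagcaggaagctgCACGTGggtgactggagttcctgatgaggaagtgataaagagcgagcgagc
Ptgs2os2: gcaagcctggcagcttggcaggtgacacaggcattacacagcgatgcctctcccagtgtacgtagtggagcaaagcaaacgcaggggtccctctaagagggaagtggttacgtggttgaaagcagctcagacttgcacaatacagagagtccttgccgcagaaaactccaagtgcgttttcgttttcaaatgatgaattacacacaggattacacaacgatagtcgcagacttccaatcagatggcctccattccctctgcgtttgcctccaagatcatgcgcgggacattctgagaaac
Gm16907: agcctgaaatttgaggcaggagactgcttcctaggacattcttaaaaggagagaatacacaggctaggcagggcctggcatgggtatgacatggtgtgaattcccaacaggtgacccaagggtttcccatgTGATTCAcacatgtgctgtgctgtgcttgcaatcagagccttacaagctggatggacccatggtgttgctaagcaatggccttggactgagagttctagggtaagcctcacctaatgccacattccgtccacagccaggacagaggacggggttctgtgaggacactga
The AP-1 letters stood in the windows of Mirt1 and 3300005D01Rik as TGACTCA, and in that of Gm16907 as TGATTCA, outside the stricter site. The lincRNA 3300005D01Rik also held an E-box match. Ptgs2os2 had neither in this window. Among all 32851 RefSeq promoters 7.81% held the AP-1 letters and 7.15% the E-box, and among the 52 matched lincRNAs, counted by the 1 RefSeq start nearest to the start in the table, 5 held each. A second start of 1810058I24Rik also held the AP-1 letters. Of the 6 matched lincRNAs that rose in Th9 2 held the AP-1 letters and 1 the E-box, and of the 12 that fell 1 held each. The NF-kB motif and the ATF4 type motif (TGATGNAA) were searched on both strands and found in none of the 52. They were present in 0.411% and 3.97% of all promoters, in the same order. A match is a description of the letters and says nothing of binding.

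Expression was dominated by few members. The median lincRNA had a mean of 112 normalized counts over the 6 libraries of the table with Th9, 83 of the 115 had a mean under 200, 6 exceeded 1000 and 2 (Malat1 and Neat1) exceeded 10000. Per kb of exon, Malat1 stood at 20568 normalized counts averaged over both tables, followed by Neat1 at 762, Pvt1 at 577, Gm38399 at 527 and Xist at 382. Epb41l4aos, AU020206, Snhg12, Ptgs2os2 and RP24-286J21.7 completed the 10 highest, at 230 to 290 per kb. The lengths are those of GENCODE M21, where 91 lincRNAs had the coordinates given with the values. Those of Xist and Snhg12 differed, so their levels per kb are approximate. Malat1 alone made up 69.1% to 71.0% of the summed lincRNA level in Th9 libraries and 75.2% to 77.8% in Th0 libraries.

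After co-culture with Th9 cells, lincRNAs were called about as often as other genes, mostly with changes of less than 2-fold. In Th9 against Th0, where 25.2% of the 14475 genes tested were called, 11 of the 115 lincRNAs rose (9.57%) and 22 fell (19.1%), against 13.4% of all genes called higher and 11.9% called lower. The rule leaves out lincRNAs low in Th0 and high in Th9 alone. The balance of rises and falls among the members is therefore no result about lincRNAs. In all, 28.7% of the lincRNAs were called, beside 29% of the protein-coding genes over the same threshold. The remaining 82 were not called, and 49 of the 115 had an unadjusted p under 0.05. The median log2 fold change was -0.12 for the lincRNAs and -0.01 for all genes tested, and the log2 fold changes ran from -1.92 to 0.95, with 2 of them past 2-fold and 27 past 1.5-fold. The other long non-coding RNAs over the same threshold had 7.14% called higher and 14.8% lower, and the protein-coding genes 14.9% and 14.1%. The groups did not overlap for 40.6% of all genes tested. All 3 Th9 libraries lay above all 3 Th0 libraries for 14 lincRNAs (12.2%, against 21.4% of all genes) and below them for 35 (30.4%, against 19.2%).

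The number of rises and falls changed with Th0 replicate 1, and under another scaling it changed for members and all genes together. For 18 of the 22 lincRNAs that fell, Th0 replicate 1 was the highest Th0 library. Without it, 24 lincRNAs (20.9%) were called higher and 26 (22.6%) lower, beside 18.1% and 19.1% of all genes, and 31 of the 33 calls were kept. Without Th9 replicate 1, 2 or 3 in turn, 6, 9 and 7 lincRNAs were higher and 12, 13 and 13 lower, beside 7.02%, 7.84% and 9.75% of all genes higher and 5.79%, 6.56% and 8.08% lower. With every library scaled to the same total, 14 were higher and 15 lower (15.6% and 5.49% of all genes), so that 48.3% of the calls were higher, against 33.3% in the deposited scaling, and 26 of the 33 calls were kept. That scaling put the median of all genes at 0.10 and that of the lincRNAs at -0.01 on the log2 scale. With the 3 RNA genes left out of the total, 13 were higher and 17 lower (43.3% of the calls higher), beside 17.1% and 10.5% of all genes.

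**Figure D1:**
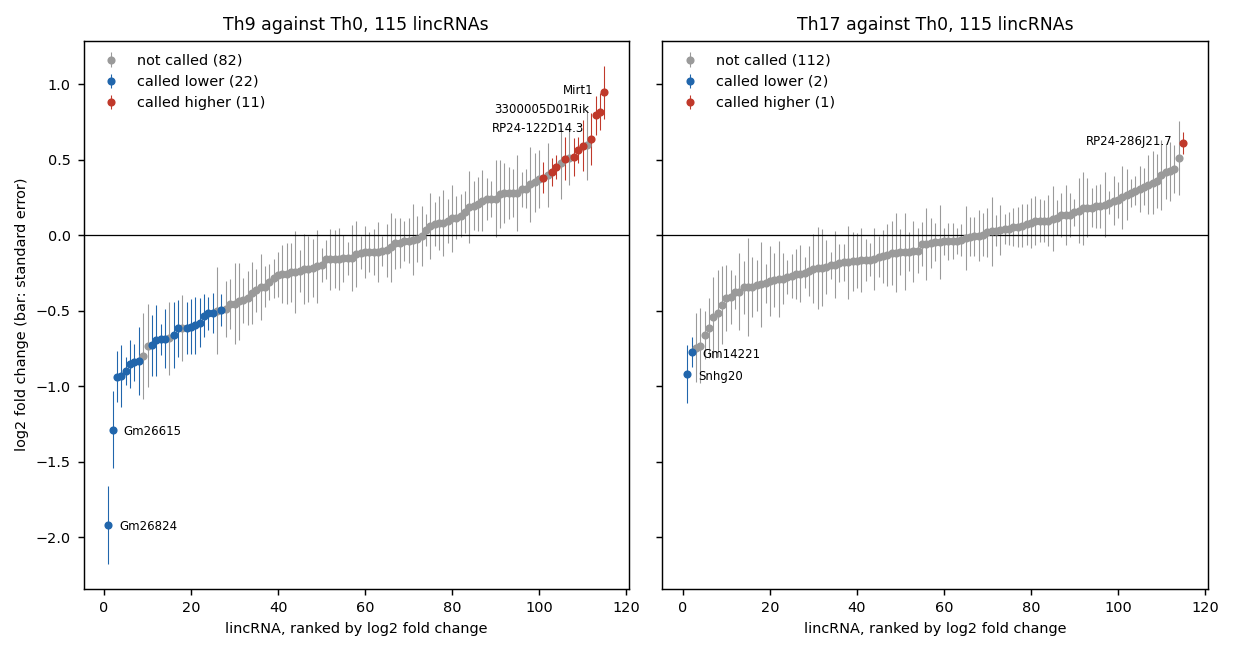
Log2 fold change of each of the 115 lincRNAs (vertical axis, with its standard error) in rank order, for Th9 against Th0 on the left and Th17 against Th0 on the right, with n = 3 libraries per group. Red points were called higher and blue points lower by limma-trend, 11 and 22 in Th9 and 1 and 2 in Th17, and grey points were not called.

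The list of immune linked long non-coding RNAs, chosen with earlier results of these data known, held 2 members. Both were called higher in Th9, as were 13.4% of all genes. Ptgs2os2 (lincRNA-Cox2), which is induced with inflammatory genes in mouse macrophages, had 591, 517 and 558 normalized counts in Th9, against 328, 477 and 369 in Th0, a 1.43-fold higher level (log2 fold change 0.52 ± 0.13 SE, limma-trend adjusted p = 0.011). The lowest Th9 library was close to the highest Th0 library, but the groups did not overlap, and the call was lost without Th9 replicate 1 (adjusted p = 0.0641). It lies at chr1:150159043-150164948, 50816 bases from Ptgs2, the inducible cyclooxygenase of prostaglandin synthesis. Ptgs2 had 4717, 4429 and 4716 normalized counts in Th9 and 1370, 1817 and 1709 in Th0 (log2 fold change 1.51). Ptgs2os, a long non-coding RNA on the strand opposite to Ptgs2 that is not a lincRNA in the tables, also rose (log2 fold change 0.62, adjusted p = 0.0188).

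Mirt1, first described as a transcript raised in the infarcted mouse heart, rose most among the 115. It had 96, 106 and 115 normalized counts in Th9 and 56, 63 and 45 in Th0. The groups were well apart, with a 1.93-fold higher level in Th9 (log2 fold change 0.95 ± 0.18 SE, limma-trend adjusted p = 0.00213), and the call was kept in all 13 alternatives. Of the 9 tested genes of the whole list of immune linked long non-coding RNAs, 3 rose and 2 fell. The falls were in Dleu2 (log2 fold change -0.84) and Gm14005 (log2 fold change -0.62), neither of which is a member.

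Of the 7 members linked to stress, p53 and growth, 1 rose in Th9, and it was the only call among the 15 tested genes of the whole list. Trp53cor1 (lincRNA-p21), a p53 target gene beside Cdkn1a, had 192, 215 and 198 normalized counts in Th9, against 167, 117 and 145 in Th0 (1.42-fold higher, log2 fold change 0.51 ± 0.14 SE, limma-trend adjusted p = 0.0218). The groups did not overlap, but the call was lost in 5 of 13 alternatives, each of which left out a library, with an adjusted p of up to 0.1. Cdkn1a, the p21 inhibitor of cyclin-dependent kinases, lies 11797 bases away and had 1048, 1142 and 934 normalized counts in Th9 and 798, 796 and 785 in Th0 (log2 fold change 0.39, adjusted p = 0.00798).

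Pvt1, a lincRNA next to the Myc oncogene that is often amplified with it, had 4496, 3858 and 4502 normalized counts in Th9, against 5146, 2962 and 3401 in Th0. Its groups overlapped through Th0 replicate 1 and it was not called (log2 fold change 0.20 ± 0.16 SE, limma-trend adjusted p = 0.414). Without Th0 replicate 1 it was called higher (log2 fold change 0.43, adjusted p = 0.00023). Myc, 47612 bases away, had 12825, 13481 and 10269 normalized counts in Th9 and 4288, 4766 and 4837 in Th0 (log2 fold change 1.39). Lncpint, a p53-induced lincRNA, had a log2 fold change of -0.15 (adjusted p = 0.654). The lincRNA 1700020I14Rik (Cyrano), which directs the decay of the microRNA miR-7, had one of -0.10 (adjusted p = 0.485). Without Th0 replicate 1 this lincRNA was called lower (log2 fold change -0.20, adjusted p = 0.0265). Carmn and Bvht, known from the cardiac lineage in mouse, had log2 fold changes of -0.16 and -0.05 (adjusted p = 0.409 and 0.848).

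None of the 4 nuclear members was called in Th9, with unadjusted p-values between 0.113 and 0.449, and of the 9 tested genes on the whole list 1 fell (Airn, not a member). Malat1 had 114645, 113802 and 118346 normalized counts in Th9, against 188020, 133280 and 153316 in Th0. All Th9 libraries were lower, but the Th0 libraries differed much among themselves (log2 fold change -0.44 ± 0.26 SE, limma-trend adjusted p = 0.239). Neat1 had 17944, 15179 and 17240 normalized counts in Th9, within the range of 23738, 10006 and 13423 in Th0 (log2 fold change 0.19, adjusted p = 0.609). Xist had 7738, 7010 and 7292 normalized counts in Th9 and 8060, 5696 and 5231 in Th0 (log2 fold change 0.24, adjusted p = 0.239). Ftx, a lincRNA of the X-inactivation centre and host of miR-374b and miR-421, had a log2 fold change of -0.23 (adjusted p = 0.243).

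For these abundant RNAs the calls changed with Th0 replicate 1. Without it, the log2 fold change in Th9 was 0.53 for Neat1 (limma-trend adjusted p = 0.000273), 0.43 for Xist (adjusted p = 3.71e-05) and -0.31 for Malat1 (adjusted p = 0.00728), each past the threshold. Ftx was not called in that fit either (log2 fold change -0.07, adjusted p = 0.641).

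**Figure D2:**
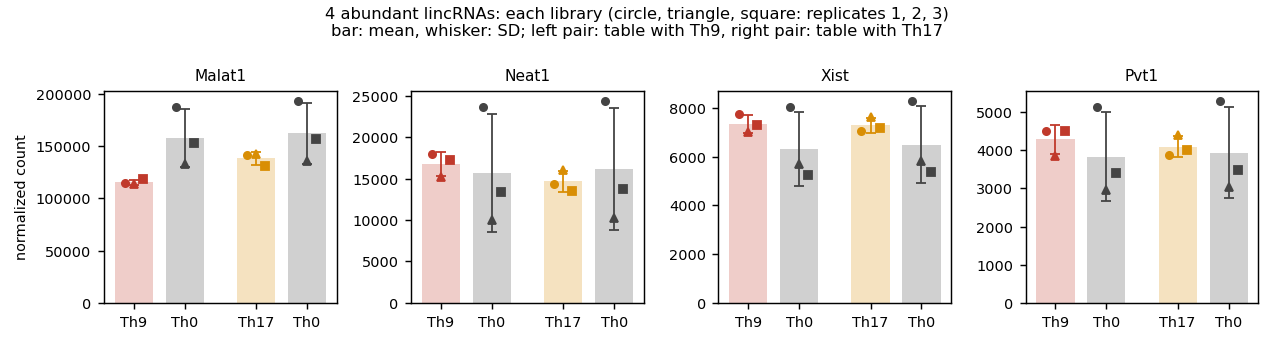
Normalized counts (vertical axis) of Malat1, Neat1, Xist and Pvt1 in every library, with Th9 beside Th0 of its table on the left of each panel and Th17 beside Th0 of its table on the right. Bars are means, whiskers are SD (n = 3) and symbols are libraries, and the Th0 circle (replicate 1) lies above the other Th0 libraries in all 4 panels, at 188020 for Malat1 in the table with Th9.

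Host genes of small RNAs mostly did not pass the test. Snhg20, which encloses a small Cajal body RNA and Mir6516, fell: it had 326, 291 and 381 normalized counts in Th9, against 724, 387 and 447 in Th0 (log2 fold change -0.60 ± 0.19 SE, 1.51-fold lower, limma-trend adjusted p = 0.0365). Its highest Th9 library was just under its lowest Th0 library, and the call was lost in 5 of 13 alternatives. Without Th0 replicate 1 the log2 fold change was -0.33 (adjusted p = 0.0271). Snhg12 (host of Snora16a, Snora44, Snora61 and Snord99), Snhg6 (host of Snord87) and Epb41l4aos were not called, with log2 fold changes of -0.11, 0.12 and 0.28. Of the 17 tested genes on the whole list of small RNA hosts, 1 rose (Zfas1, log2 fold change 0.44, not a member) and 2 fell (Snhg20 and the non-member Taf1d, log2 fold change -0.28).

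Mir17hg, the primary transcript of the growth-promoting miR-17-92 cluster, had 210, 189 and 202 normalized counts in Th9, inside the wide span of 271, 158 and 104 in Th0 (log2 fold change 0.28 ± 0.25 SE, limma-trend adjusted p = 0.456). Without Th0 replicate 1 it was called higher (log2 fold change 0.64, adjusted p = 0.00295). Of the 8 tested microRNA host genes, 1 fell (Dleu2, not a member). No lincRNA of the 115 was on the list of imprinted RNAs, of whose 5 tested genes 2 fell in Th9 (Airn and Peg13).

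The other rises were in lincRNAs with no role known to be stated here. The lincRNA 3300005D01Rik had 259, 252 and 229 normalized counts in Th9, against 157, 133 and 129 in Th0 (1.76-fold higher, log2 fold change 0.82 ± 0.12 SE, limma-trend adjusted p = 0.000473). RP24-122D14.3 had 356, 326 and 373 in Th9 and 223, 223 and 166 in Th0 (1.73-fold higher, adjusted p = 0.000862). RP24-286J21.7 had 1645, 1537 and 1380 in Th9 and 1084, 980 and 1012 in Th0 (1.48-fold higher, adjusted p = 0.000648). In each of these every Th9 library was well above every Th0 library, and each call held in all 13 alternatives. RP24-286J21.7 lies within the protein-coding gene Gm20388 on the same strand, without exon overlap. AU020206 had 1060, 1089 and 1023 normalized counts in Th9 and 728, 797 and 795 in Th0 (log2 fold change 0.45 ± 0.08 SE), also called in all 13 alternatives. The other 4 rises were 9330136K24Rik, 4930516B21Rik, 4632415L05Rik and G730013B05Rik, with log2 fold changes of 0.64, 0.59, 0.42 and 0.38. Their calls were lost in 2, 3, 1 and 2 of the 13 alternatives, in the same order.

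The falls past 2-fold were in lincRNAs that met the threshold of 50 through their Th0 libraries. The rule asks for the mean over both groups in both tables, so lincRNAs low in Th0 and high in Th9 alone were left out. The numbers and sizes of falls and rises among the members thus cannot be set against each other. Gm26824 had 20, 15 and 29 normalized counts in Th9, against 85, 67 and 92 in Th0, 3.78-fold lower (log2 fold change -1.92 ± 0.26 SE, limma-trend adjusted p = 0.000224). Gm26615 had 43, 52 and 42 in Th9 and 180, 83 and 95 in Th0, 2.44-fold lower (log2 fold change -1.29 ± 0.26 SE, adjusted p = 0.00323). Their means in Th9 were 21.3 and 45.7, under the threshold. Both stood apart in every library and were called in all 13 alternatives, and the fall of Gm26615 without Th0 replicate 1 was -0.95 on the log2 scale.

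Gm38399, the most abundant lincRNA that fell, had 548, 509 and 557 normalized counts in Th9 and 1050, 897 and 1070 in Th0 (log2 fold change -0.90 ± 0.09 SE, limma-trend adjusted p = 3.28e-05). Gm20342 had 352, 355 and 343 in Th9 and 773, 524 and 613 in Th0 (log2 fold change -0.84, adjusted p = 0.000449), and Gm7967 had 255, 303 and 302 in Th9 and 495, 446 and 446 in Th0 (log2 fold change -0.69, adjusted p = 0.000482). The Th9 libraries of these lincRNAs lay close together and well under Th0. Gm16907 had 79, 79 and 82 normalized counts in Th9 and 220, 113 and 145 in Th0 (log2 fold change -0.93, adjusted p = 0.00616). Gm19325 had 57, 51 and 51 in Th9 and 118, 103 and 88 in Th0 (log2 fold change -0.94, adjusted p = 0.00181).

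Of the further falls, Gm26772, 1700001L05Rik, Gm43660, Gm26785, Ino80dos, Gm16617, Gm37855 and Gm37233 had log2 fold changes between -0.85 (Gm26772) and -0.61 (Gm37233). Gm26785 and Gm16617 were the calls lost without Th0 replicate 1 (log2 fold changes -0.42 and -0.37, adjusted p = 0.092 and 0.0822), and each was lost in 7 of the 13 alternatives. Gm37855 lost its call in 5 of them, Gm37233 in 4, 1700001L05Rik and Gm43660 in 3 and Ino80dos in 2, while Gm26772 kept it in all 13. Lockd, a lincRNA 3579 bases from the cell cycle inhibitor gene Cdkn1b, had 81, 81 and 63 normalized counts in Th9 and 122, 103 and 111 in Th0 (log2 fold change -0.58, limma-trend adjusted p = 0.0207), while Cdkn1b itself was not called (log2 fold change 0.08, adjusted p = 0.533). The remaining 5 were Gm26518, 5430416N02Rik, 5031425E22Rik, 1300002E11Rik and Gm1976, with log2 fold changes from -0.60 (Gm26518) to -0.50 (Gm1976), and that of Gm26518 was -0.36 without Th0 replicate 1 (adjusted p = 0.0224). The calls of 5031425E22Rik and Gm1976 held in all 13 alternatives. Lockd, 5430416N02Rik and 1300002E11Rik lost theirs in 3 and Gm26518 in 4. In bulk RNA a lower level from fewer cells of a type and from less RNA per cell cannot be told apart.

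**Figure D3:**
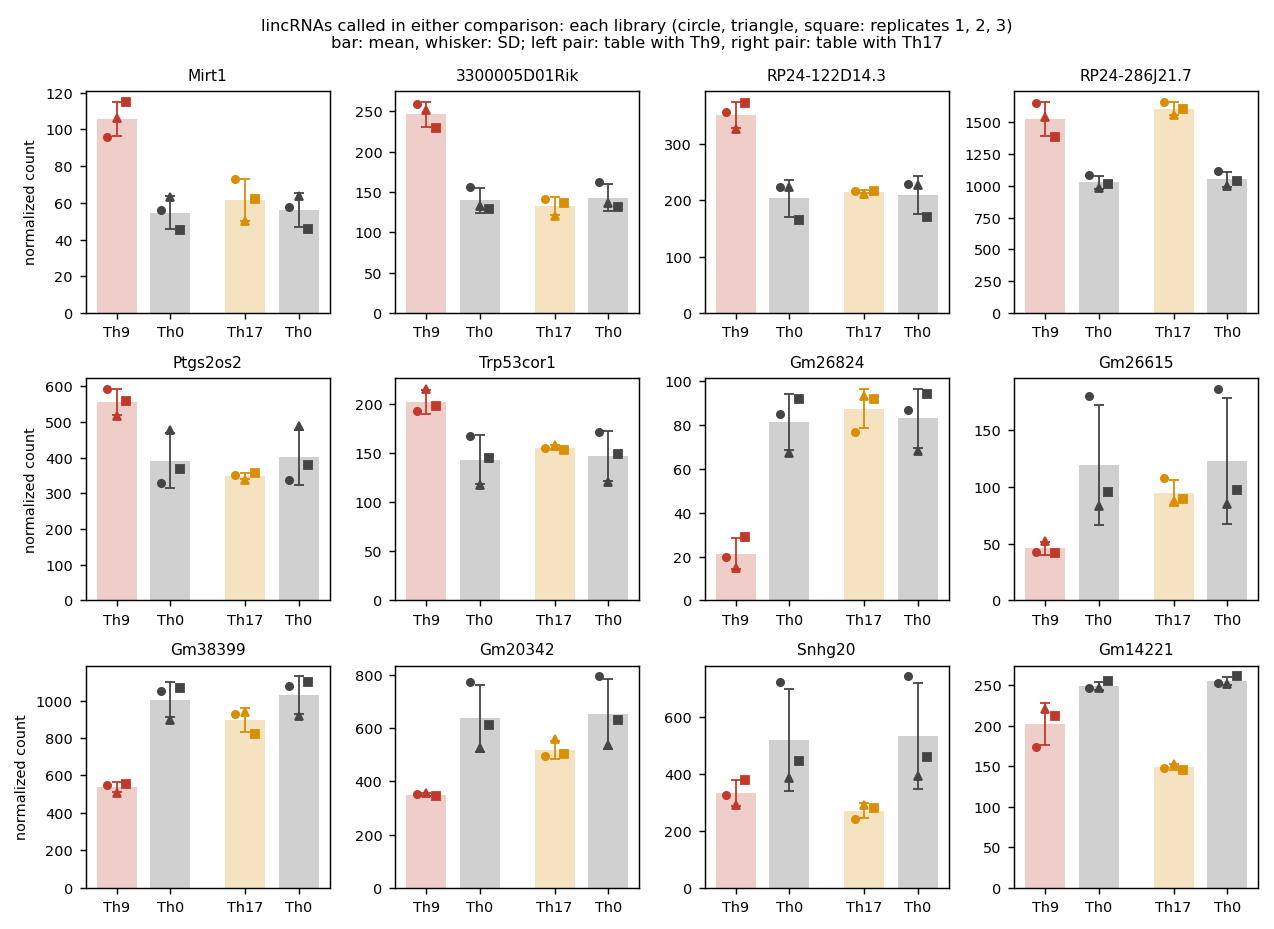
Normalized counts (vertical axis) of 12 lincRNAs called in one or both comparisons, in every library, with Th9 beside Th0 of its table on the left of each panel and Th17 beside Th0 of its table on the right. Bars are means, whiskers are SD (n = 3) and symbols are libraries, and Gm26824 at 15 to 29 in Th9 lies farthest from its Th0 libraries at 67 to 92.

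Some of the lincRNAs that moved sat in or beside protein-coding genes that moved the same way. A tested nearest protein-coding gene was available for 93 lincRNAs. These neighbours were 91 different genes, of which 34 were called in Th9 (37.4%, against 29% of the protein-coding genes over the threshold and 25.2% of all genes tested). Across the 93 pairs the log2 fold changes of lincRNA and neighbour had a Pearson r of 0.405, and this was 0.567 for the 40 pairs that overlap and 0.286 for the 53 that do not. The overlapping pair of Gm26824 and Rev3l lay lowest in both, at -1.92 and -1.22, and r without this pair was not computed. The direction was the same in only 52 of the 93 pairs. In Th17 against Th0 the r over the pairs was 0.121, with the same direction in 48. These values describe pairs of genes within the same libraries, which are not independent replicates, and overlapping pairs can share reads.

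Of the 22 lincRNAs that fell 21 had a tested neighbour, of which 8 fell as well and 4 rose (beside 14.1% and 14.9% of the protein-coding genes over the threshold). In 6 of the 8 the lincRNA overlapped the neighbour. Gm26824 lies inside Rev3l (catalytic subunit of DNA polymerase zeta) on the opposite strand at chr10:39864859-39866332, without exon overlap. Rev3l had 2540, 2368 and 2787 normalized counts in Th9 and 5640, 6318 and 6008 in Th0 (log2 fold change -1.22). Gm38399 shares exon sequence with Nav1 on the same strand at chr1:135606447-135688105, and Nav1 had 3726, 3683 and 3503 in Th9 and 5225, 4996 and 5072 in Th0 (log2 fold change -0.49). Both host genes were lower in every Th9 library, and the part of host reads in these lincRNA values was not tested.

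Gm26615 lies 7364 bases from Ahdc1 without overlapping it. Ahdc1 had 631, 647 and 658 normalized counts in Th9 and 1016, 897 and 933 in Th0 (log2 fold change -0.55). The lincRNAs that fell beside a neighbour that rose were Gm1976 beside Mettl4, Snhg20 beside Sec14l1, Gm26518 in Prr13 and Gm19325 beside Slc25a36.

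Of the 11 lincRNAs that rose 9 had a tested neighbour, of which none fell and 4 rose (beside 14.1% and 14.9% of the protein-coding genes over the threshold). These were Ptgs2os2 with Ptgs2, Trp53cor1 with Cdkn1a, 9330136K24Rik with Zfp52 (log2 fold change of Zfp52 0.92) and 4632415L05Rik with Cp, which encodes ceruloplasmin (log2 fold change of Cp 0.79). Mirt1 and 3300005D01Rik had nearest coding genes (Smndc1 and Snx9) with log2 fold changes of -0.06 and 0.17 that were not called.

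**Figure D4:**
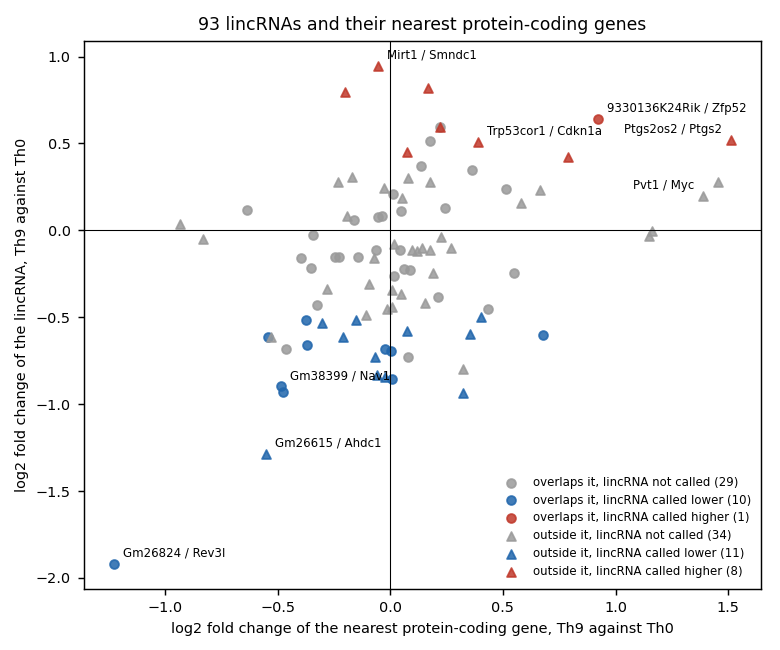
Log2 fold change in Th9 against Th0 of 93 lincRNAs (vertical axis) and of the nearest protein-coding gene (horizontal axis). Circles overlap that gene and triangles do not, with red for lincRNAs called higher, blue for lower and grey for not called, and the Gm26824 and Rev3l pair lies lowest on both axes, at -1.92 and -1.22.

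Few of these lincRNAs were called after co-culture with Th17 cells. In Th17 against Th0, where 1.58% of the 14342 genes tested were called, 1 of the 115 rose (0.87%, against 1.19% of all genes) and 2 fell (1.74%, against 0.39%), and 18 had an unadjusted p under 0.05. The median log2 fold change was -0.05, and -0.0046 for all genes tested, and log2 fold changes ran from -0.92 to 0.61. The groups did not overlap for 23.4% of all genes tested. The Th17 libraries lay above all Th0 libraries for 7 lincRNAs (6.09%, against 12.8% of all genes) and below them for 11 (9.57%, against 10.6%). Without Th0 replicate 1 there were 8 calls higher and 3 lower, beside 6.85% and 9.7% of all genes, and the median was 0.08. Without Th17 replicate 1 or without Th17 replicate 3 no lincRNA was called by limma-trend, and 9 and 11 had an unadjusted p under 0.05. In those fits 0.104% and 0.0975% of all genes were called higher and 0.0278% and 0.0139% lower.

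RP24-286J21.7 had 1660, 1553 and 1600 normalized counts in Th17, against 1115, 1001 and 1038 in Th0 (1.53-fold higher, log2 fold change 0.61 ± 0.07 SE, limma-trend adjusted p = 0.00477). Gm14221 had 148, 153 and 145 in Th17 and 253, 251 and 261 in Th0 (1.71-fold lower, log2 fold change -0.77 ± 0.10 SE, adjusted p = 0.00559). In both, the libraries of each group lay close together and the groups far apart, and both calls were lost without Th17 replicate 1 (adjusted p = 0.0585 for RP24-286J21.7 and 0.0573 for Gm14221) or replicate 3 (adjusted p = 0.0544 and 0.0553), with log2 fold changes of 0.59 and 0.61 for RP24-286J21.7 and of -0.77 and -0.76 for Gm14221. In the table with Th9, Gm14221 had 173, 221 and 212 in Th9 and 246, 246 and 255 in Th0 and was not called (adjusted p = 0.0777). Without Th0 replicate 1 it was called lower there (log2 fold change -0.32, adjusted p = 0.0482).

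Snhg20 had 241, 291 and 282 normalized counts in Th17, against 745, 395 and 459 in Th0 (1.89-fold lower, log2 fold change -0.92 ± 0.19 SE, limma-trend adjusted p = 0.0425). Th0 replicate 1 was by far the highest library. Without it the fall was -0.65 on the log2 scale and was called (adjusted p = 0.000697), while the call was lost in 5 of 13 alternatives, among them leaving out any 1 of the Th17 libraries (adjusted p of up to 0.223). RP24-286J21.7 and Snhg20 were called in both comparisons, which share the Th0 libraries, and 81 of the 115 were called in neither.

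The 3 largest rises and 2 largest falls of Th9 were not called in Th17. Mirt1 had 73, 50 and 62 normalized counts in Th17 and 58, 64 and 46 in Th0 (log2 fold change 0.13 ± 0.20 SE, limma-trend adjusted p = 0.779). Gm26824 had 77, 93 and 92 in Th17 and 87, 68 and 94 in Th0 (log2 fold change 0.08 ± 0.17 SE, adjusted p = 0.848). In both, the Th17 and Th0 libraries overlapped. The log2 fold changes in Th17 were -0.11 for 3300005D01Rik (adjusted p = 0.718), 0.05 for RP24-122D14.3 (adjusted p = 0.868) and -0.29 for Gm26615 (adjusted p = 0.598). Ptgs2os2, of the immune linked list, had 350, 338 and 356 in Th17 and 337, 487 and 378 in Th0 (log2 fold change -0.19 ± 0.12 SE, adjusted p = 0.472). The difference between the Th9 and Th17 responses was not tested, as the tables were normalized separately.

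Among the nuclear members, Malat1 had 141436, 142573 and 131238 normalized counts in Th17 and 193371, 136164 and 157333 in Th0 (log2 fold change -0.22, limma-trend adjusted p = 0.712). Neat1 and Ftx had log2 fold changes of -0.04 and -0.14 (adjusted p = 0.95 and 0.652). Xist, and the growth-linked Pvt1, had log2 fold changes of 0.19 and 0.10 and were not called, but without Th0 replicate 1 both were called higher, at 0.38 (adjusted p = 0.000378) and 0.33 (adjusted p = 0.00437). Myc rose in Th17, with 7487, 6486 and 6848 normalized counts in Th17 and 4410, 4869 and 4964 in Th0 (log2 fold change 0.55, adjusted p = 0.0147). The lincRNA 1700020I14Rik had 1882, 2011 and 1892 in Th17 and 1386, 1767 and 1640 in Th0. Its groups did not overlap but it was not called (log2 fold change 0.28 ± 0.09 SE, adjusted p = 0.155). Without Th0 replicate 1 it was called higher (log2 fold change 0.18, adjusted p = 0.047).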

How the data were processed

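Total RNA of LLC1 cells was measured in 9 libraries (3 groups of 3) prepared with a stranded SMARTer total RNA kit, per the labels' protocols. The programs STAR 2.4.0a, featureCounts 1.4.5-p1 (Subread) and DESeq2 1.62 are named with builds mm10 and GRCm38, per the submitters' processing notes, which give them no role or order, and strand use is not stated. The authors deposited scores in whole numbers, in 2 tables, which behave as counts of reads scaled by a factor for each library: the shared Th0 libraries differ between tables by factors of 1.02 to 1.03. As these are not raw counts, limma-trend (limma 3.58.1, R 4.3.3) was run within each table on log2(value + 1), keeping genes that averaged at least 10 across 6 libraries, adjusted over all genes, after a check on simulated data. All 115 members passed this filter, and in the table with Th9 3 had a mean under 50 in Th0 and 9 in Th9, 4 of these 9 called lower. Exon lengths, neighbours and overlaps came from GENCODE M21, and promoters from RefSeq. The members, marker lists and role lists were chosen with earlier results of these data known. Named were called members without overlap between groups (up to 15 per direction with the largest change), the 10 highest per kb, all members on the role lists and those at the threshold. Gm26518, 5430416N02Rik, 5031425E22Rik, 1300002E11Rik, Gm1976 and Lockd, neighbours and non-member genes were named after their values were seen. No column of sample values was left unused (0).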

Additional observations from a re-analysis of the deposited data

How the results depend on the processing

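No direction of a named lincRNA call reversed in any of 13 alternatives (pseudocount 5, no filter on low values, mean of at least 50, 2 scalings to the same total, array weights, replicate block and 6 libraries left out). In Th9, array weights gave 27 members higher and 33 lower, with 3302 and 3326 of all genes, and the same total per library gave 794 genes lower. In Th17, array weights gave 15 members higher and 10 lower, with 1572 and 1789 of all genes, the same total gave 20 genes lower, and the total without the 3 RNA genes gave 345 genes higher, 102 lower and 1 member lower. Leaving out 1 library gave 6 to 24 members higher and 12 to 27 lower in Th9 (all genes 1015 to 2594 and 838 to 2742), and 0 to 8 and 0 to 3 in Th17 (all genes 14 to 974 and 2 to 1378). In Th9, 9 rises and 13 falls were among the 64 members with a mean of at least 100, 8 and 14 among the 69 without exon overlap (11.6% and 20.3%), and 9 and 12 among the 66 outside protein-coding genes (13.6% and 18.2%, against 13.4% and 11.9% of all genes), which held 0 of the rises in Th17; the choices on exons and hosts were added after seeing the data. A mean of at least 50 over Th0 alone, asked for in each table, gave 120 lincRNAs. Of these 11 rose and 25 fell in Th9, against 13.4% and 11.9% of all genes. Choosing by the level in Th0, the reference group, favours falls, so this balance is no result about lincRNAs. The median log2 fold change changed sign in Th17 alone (0.02 with array weights, 0.08 without Th0 replicate 1). Libraries with the same number deviated together weakly at most (r = 0.11, -0.01 and 0.15 in Th9, -0.05, -0.08 and 0.04 in Th17). Th9 replicates 1 and 3 and Th17 replicate 3 correlated best with the Th0 library of their own number, and the other replicates did not. The replicate block gave 13 members higher and 29 lower in Th9 (all genes 14.6% and 13.6%), and 1 and 2 in Th17 (1.3% and 0.53%). Depth limits the low members most. The causes of these shifts were not tested.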

Other observations

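Requiring a mean of at least 50 in both tables leaves out lincRNAs that are high in Th9 alone, and 18 of the 231 tested lincRNAs under the threshold rose in Th9 while 17 fell (7.79% and 7.36%, against 13.4% and 11.9% of all genes). These were chosen after their values were seen. Gm12022 had 84, 96 and 90 normalized counts in Th9 and 29, 20 and 16 in Th0 (log2 fold change 2.04 ± 0.24 SE, limma-trend adjusted p = 7.45e-05), and 25, 16 and 15 in Th17 and 30, 21 and 16 in Th0. Gm12603 had 82, 67 and 75 in Th9 and 26, 27 and 26 in Th0 (log2 fold change 1.46, adjusted p = 0.000207). Gm19705 had 105, 81 and 88 in Th9 and 41, 30 and 30 in Th0 (log2 fold change 1.42, adjusted p = 0.000322). The groups of each were far apart in Th9, and none of the 3 was called in Th17 by limma-trend. AW112010, an RNA known from activated mouse immune cells, had 12, 7 and 6 in Th9 and was listed at 0 in each Th0 library, too low to be tested.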
